A study of Mus musculus with 22 samples.

Results

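RNA-sequencing counts of T-bet+ and T-bet– type 2 classical dendritic cells (cDC2s) from the mouse mesenteric lymph nodes (MLNs) were compared across all genes. The comparison took its 4 libraries from the tissue and subset given in the sample labels, 2 T-bet+ and 2 T-bet– cDC2 libraries, of 22 mouse libraries in all (16 RNA-seq and 6 ATAC-seq). All mice carried a homozygous knock-in reporter, Tbx21RFP-cre, and were male and female, matched for sex, at 6 to 10 weeks of age, with cells of 2 mice pooled for each library. Cells negative for markers of T and B lymphocytes and for CD64 and Ly6C, and positive for CD11c and MHC class II, were sorted as CD11b+ XCR1– and then by RFP, which the study takes as a reporter of T-bet protein. The labels give RFP+ cells as T-bet+, as do the study's legends, while 1 sentence of its methods has the signs the other way round. The labels were followed and were checked against *Tbx21* below. The question the comparison answers is which genes differ between the cDC2 subsets in a node that drains the gut.

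Dendritic cells take up antigen and present it to T cells, and cDC2s are the classical dendritic cells specialised in priming CD4 T cells. In a lymph node, cDC2s that live in the node mix with cells that have migrated in from the tissue along lymphatic vessels, guided by the chemokine receptor CCR7. T-bet, encoded by *Tbx21*, is a T-box transcription factor best known for directing type 1 responses in T cells and innate lymphoid cells. Bulk RNA from sorted cells averages over all the cells of a library, so fewer cells of a type and less RNA per cell cannot be told apart.

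The 4 libraries held 22881792 and 23815323 counts on genes in T-bet+ cDC2s and 27944616 and 25116020 in T-bet– cDC2s, within the range of 20993220 to 29006549 over all 16 RNA libraries. No pair of libraries held identical counts. Of 34047 genes in the table, 15298 had enough counts to be tested. The labels number the replicates, and the study's methods give them as biological replicates of pooled cells. In the main fit, p-values measure only the spread between the 7 MLN libraries, those of type 1 classical dendritic cells (cDC1s) included. T-bet+ replicate 1 stood apart from the other 3 libraries. It differed from T-bet+ replicate 2 by over 2-fold at 1242 of 8213 well expressed genes (15.1%), against 657 (8.0%) between the T-bet– replicates. T-bet+ replicate 2 differed from the T-bet– libraries at 706 (8.60%) and 731 (8.90%), about as often as the T-bet– libraries did from each other, and T-bet+ replicate 1 at 1771 (21.6%) and 1432 (17.4%). The share of counts on mitochondrial genes was 0.653% and 0.747% in T-bet+ and 0.385% and 0.421% in T-bet– cDC2s. Expression relative to the mean of the 7 MLN libraries was related to transcript GC content to a different degree in each, with a Spearman's rho across genes of -0.124 and -0.414 in T-bet+ replicates 1 and 2 and of 0.035 and 0.349 in T-bet– replicates 1 and 2. Genes are not independent replicates, and these are descriptions. The part of these library properties in the differences below was not tested, except where values without a library or after removal of the GC trend are given.

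At an adjusted p under 0.05, edgeR's quasi-likelihood test over the 7 MLN libraries called 0 of 15298 genes, a background of 0%. At an unadjusted p under 0.05 it placed 572 genes higher in T-bet+ cDC2s (3.74% of those tested) and 872 lower (5.7%). DESeq2 on the same libraries called 102 genes higher (0.667%) and 226 lower (1.48%) at an adjusted p under 0.05. limma-voom called 14 genes, all 14 of which DESeq2 also called, and edgeR's newer estimate of the spread called 28, likewise all among the DESeq2 calls. Differences below are therefore given as values in each library, with adjusted p of both edgeR and DESeq2 for a part of the genes, and "higher" and "lower" describe the libraries. Without T-bet+ replicate 1 the count at an unadjusted p under 0.05 was 871, and without T-bet+ replicate 2 it was 2265. Both T-bet+ libraries lay above both T-bet– libraries for 19% of genes and below both for 21%. The median log2 fold change over all genes tested was -0.017. The genes at an unadjusted p under 0.05 differed in transcript GC content, with a median of 45.2% for those higher, 53.0% for those lower and 49.7% for all genes. With the GC trend removed, the medians were 49.2% and 50.2%, and 1253 genes stood at an unadjusted p under 0.05 (542 higher and 711 lower).

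**Figure D1:**
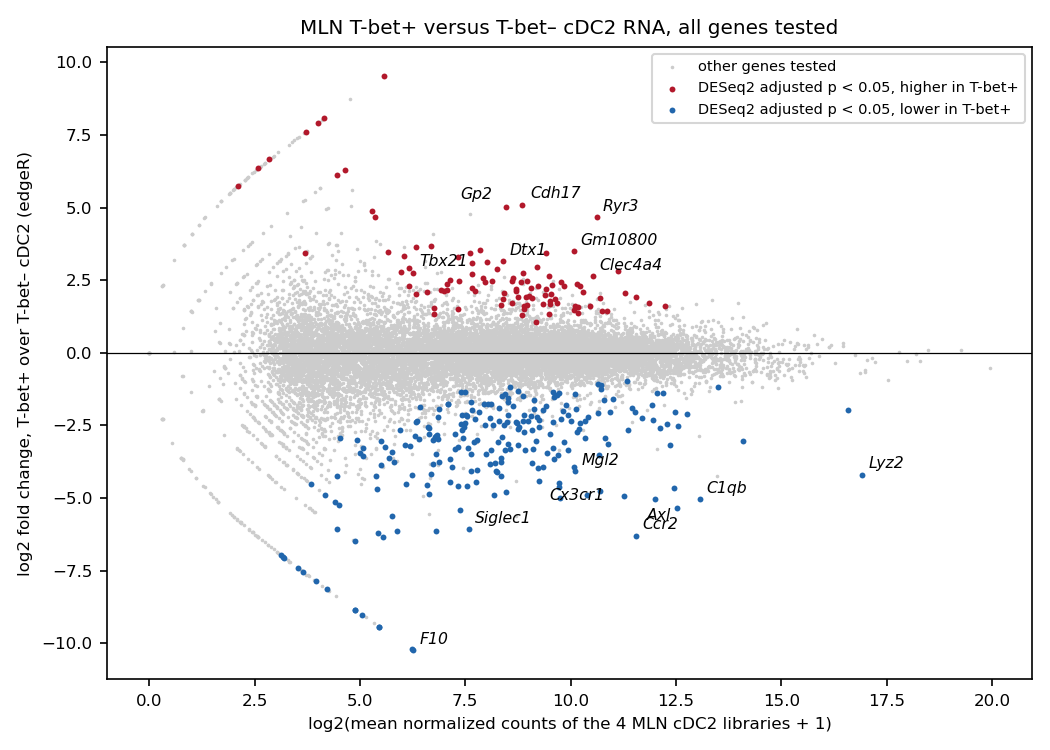
Each point is a gene tested, with the mean level over the 4 MLN cDC2 libraries on the horizontal axis (log2 scale) and its log2 fold change, positive where T-bet+ is higher, on the vertical axis. Coloured points mark the 102 genes that DESeq2 called higher and the 226 it called lower in T-bet+ cDC2s. *Lyz2*, *C1qb*, *Axl*, *Ccr2* and *Cx3cr1* lie far below 0 among genes at high levels.

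The genes that mark the subsets separated the libraries as labelled. *Tbx21* carries the reporter used for the sort. The study named *Tbx21*, *Dtx1* and *Cx3cr1* as subset genes from a comparison that included these MLN libraries. Their separation is a check of the labels and not independent support. *Tbx21*, on chr11:97098071-97115331 of mm10, had 187 and 77.2 normalized counts in T-bet+ against 14.8 and 23.98 in T-bet– libraries, counts being scaled by library size and TMM factors here and throughout. Its log2 fold change was 2.76 ± 0.64, with an adjusted p of 0.266 in edgeR and 0.0135 in DESeq2. *Dtx1*, which encodes an E3 ubiquitin ligase of the Notch pathway and lies on chr5:120680202-120711927, had 831 and 374 normalized counts in T-bet+ against 81.6 and 52.95 in T-bet– libraries. For *Dtx1* the log2 fold change was 3.16 ± 0.68, with an adjusted p of 0.252 in edgeR and 0.000216 in DESeq2. Both genes were lower in T-bet+ replicate 2 than in T-bet+ replicate 1, and still lay above both T-bet– libraries.

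A pair of chemokine receptor genes was far lower in T-bet+ cDC2s. *Ccr2*, which encodes the receptor through which monocytes follow CCL2 and lies on chr9:124101950-124113557, had 47.03 and 105 normalized counts in T-bet+ against 6544 and 5327 in T-bet– libraries. Its log2 fold change was -6.29 ± 0.63, with an adjusted p of 0.0569 in edgeR and 8.84e-28 in DESeq2. *Cx3cr1*, the gene of the fractalkine receptor on chr9:119901616-120069879, had 146 and 168 normalized counts in T-bet+ against 5677 and 3842 in T-bet– libraries. The log2 fold change of *Cx3cr1* was -4.92 ± 0.46, with an adjusted p of 0.0569 in edgeR and 2.36e-24 in DESeq2. Both were among the genes with the smallest adjusted p in the edgeR fit. Both T-bet+ libraries held low levels of *Ccr2* and *Cx3cr1*, T-bet+ replicate 2 among them, although it otherwise lay near the T-bet– libraries.

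Among genes higher in T-bet+ cDC2s at an unadjusted p under 0.05, without overlap of the subsets and averaging 50 or more normalized counts, *Cdh17* and *Gp2* had the largest log2 fold changes. *Cdh17* encodes liver-intestine cadherin, an adhesion molecule, and lies on chr4:11758147-11817895. It had 1161 and 636 normalized counts in T-bet+ against 23.2 and 28.97 in T-bet– libraries, a log2 fold change of 5.10 ± 0.65, with an adjusted p of 0.0929 in edgeR and 8.44e-14 in DESeq2. *Gp2*, on chr7:119442537-119459285, encodes glycoprotein 2, known as an uptake receptor for fimbriated bacteria on intestinal M cells. *Gp2* had 915 and 453 normalized counts in T-bet+ against 24.1 and 17.98 in T-bet– libraries, a log2 fold change of 5.01 ± 0.72, with an adjusted p of 0.0943 in edgeR and 2.46e-11 in DESeq2. *Ryr3*, which encodes a calcium release channel of the endoplasmic reticulum, had 2874 and 3149.8 normalized counts in T-bet+ against 156 and 79.9 in T-bet– libraries. Of these, *Ryr3* differed least between the T-bet+ replicates.

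Other genes with large differences encode a mixed set of proteins. *Ncald*, the gene of a neuronal calcium sensor, had 595 and 248 in T-bet+ against 31.5 and 39.96 in T-bet– libraries. *Rasal1*, which encodes a Ras GTPase-activating protein, had 547 and 161 in T-bet+ against 28.8 and 35.97 in T-bet– libraries. *Pcyt1b*, the gene of an enzyme of phosphatidylcholine synthesis, had 237 and 138 in T-bet+ against 6.49 and 22.98 in T-bet– libraries. Their log2 fold changes were 3.56 ± 0.70, 3.45 ± 1.03 and 3.67 ± 0.71 (SE) in that order. *Cyp4f37*, of the cytochrome P450 family, had 1834 and 652 in T-bet+ against 106 and 122 in T-bet– libraries, and *Dmrtb1*, of the DM-domain transcription factors, had 153 and 82.3 in T-bet+ against 7.42 and 15.99 in T-bet– libraries. In each of these genes both T-bet+ libraries lay above both T-bet– libraries, as the rule that named them required. *Gm10800* (1580.3 and 2376 in T-bet+ against 185 and 164 in T-bet– libraries) and *Gm10801* (130.3 and 167 in T-bet+ against 7.42 and 15.99 in T-bet– libraries) consist of repeat-like sequence with near-identical copies, and their counts are uncertain.

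Accessible chromatin was measured in spleen and not in MLN, and spleen cDC2s had a summit window of 150 bases within 2000 bases of the start of 8 of the 23 genes that are subset markers or have the largest fold changes. The window near the start of *Cdh17* with the largest ratio lay 187 bases upstream, on the forward strand of mm10 at chr4:11757886-11758035. It held 44.99 and 56.9 normalized reads in T-bet+ and 28.1 and 15.97 in T-bet– spleen cDC2s. The window near *Siglec1*, a gene lower in T-bet+ cDC2s, with the smallest ratio lay 80 bases upstream at chr2:131086771-131086920, with 25.8 and 26.6 reads in T-bet+ and 60.6 and 56.8 in T-bet– spleen cDC2s. Both were taken among windows outside UTRs with at least 50 normalized reads in the higher subset. Their sequences, forward strand and in lower case throughout because none of the motifs searched was found, are shown as accessible sites close to the start of a gene that differed in each direction. Since these windows were chosen for a ratio in the direction of the RNA, they do not bear on how chromatin and RNA go together. Summed over the windows of a gene, the log2 ratio of spleen reads, T-bet+ over T-bet–, was 0.85 for *Cdh17* and -1.06 for *Siglec1*. It was 1.09 for *Tbx21* and 0.86 for *Rasal1*, higher in RNA, and -0.42 for *Cx3cr1* and -1.53 for *F10*, lower in RNA. The sum went otherwise for *Gm10800* (-0.62), higher in RNA and of repeat-like sequence, and was 0.027 for *Ccr2*, lower in RNA. The motifs searched on both strands, with the share of all 177956 windows that hold each, were GGTGTGA (T-box, 2.4%), TGTGGTTT (Runx, 2.0%), GGAAGTG (PU.1, 10.1%), TGANTCA (AP-1, 7.9%), TTGCNNAA (C/EBP, 5.9%) and AGGTCA (nuclear receptors, 10.0%).
Cdh17 window: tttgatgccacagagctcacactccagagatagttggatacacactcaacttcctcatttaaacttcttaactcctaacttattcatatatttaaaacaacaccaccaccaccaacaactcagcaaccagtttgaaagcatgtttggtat
Siglec1 window: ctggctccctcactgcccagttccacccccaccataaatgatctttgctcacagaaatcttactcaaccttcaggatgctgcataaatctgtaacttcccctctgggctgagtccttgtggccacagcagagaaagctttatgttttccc

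Genes lower in T-bet+ cDC2s included several that were nearly absent from both T-bet+ libraries. *F10*, the gene of coagulation factor X, had 0 counts in both T-bet+ libraries and 196 and 106 normalized counts in T-bet– cDC2s, at least 50.4-fold lower against a floor of 3 counts per library. *Slc7a4*, which encodes a relative of the cationic amino acid transporters, also had 0 counts in both T-bet+ libraries and 202 and 92.9 in T-bet– cDC2s, at least 49.3-fold lower. *Itga9*, the gene of an integrin alpha chain, had 3 counts in both T-bet+ libraries together, and its ratio of 78.8 had an exact counting interval of 26.6 to 385. Its T-bet– libraries themselves stood apart, at 201 and 27.98 normalized counts.

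*Siglec1*, on chr2:131069220-131086765, encodes CD169, a sialic acid-binding receptor typical of macrophages that line the sinuses of lymph nodes. It had 5.88 and 5.08 normalized counts in T-bet+ against 533 and 219 in T-bet– libraries, a log2 fold change of -6.07 ± 0.67, with an adjusted p of 0.0735 in edgeR and 4.36e-13 in DESeq2. *Klra2*, which encodes the Ly49B receptor, had 0 and 6.10 in T-bet+ against 307 and 132 in T-bet– libraries. *Fam20c*, the gene of a kinase of secreted proteins, had 3.92 and 11.2 in T-bet+ against 252 and 397 in T-bet– libraries, and *Adcy4*, the gene of an adenylyl cyclase, had 0 and 4.06 in T-bet+ against 89.05 and 119.9 in T-bet– libraries. For each of them the T-bet+ libraries lay near 0. *Tmem26*, a membrane protein gene, had 0 and 32.5 in T-bet+ against 1194 and 423 in T-bet– libraries, and *Gdf3*, which encodes a TGF-beta family ligand, had 0 and 8.13 in T-bet+ against 211 and 179 in T-bet– libraries. DESeq2 did not call these last genes (adjusted p = 0.492 and 0.577), and it called the other 21 of the 23 subset markers and largest fold changes. Over all genes tested it called 0.667% higher and 1.48% lower. Among all genes that met the criteria for the largest fold changes, whatever their rank, it called 89 of 467 higher and 195 of 666 lower. All 23 kept their direction in every alternative that tested them. The largest fold changes were chosen from these same libraries without overlap of the subsets, so these counts are descriptions and not independent support.

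**Figure D2:**
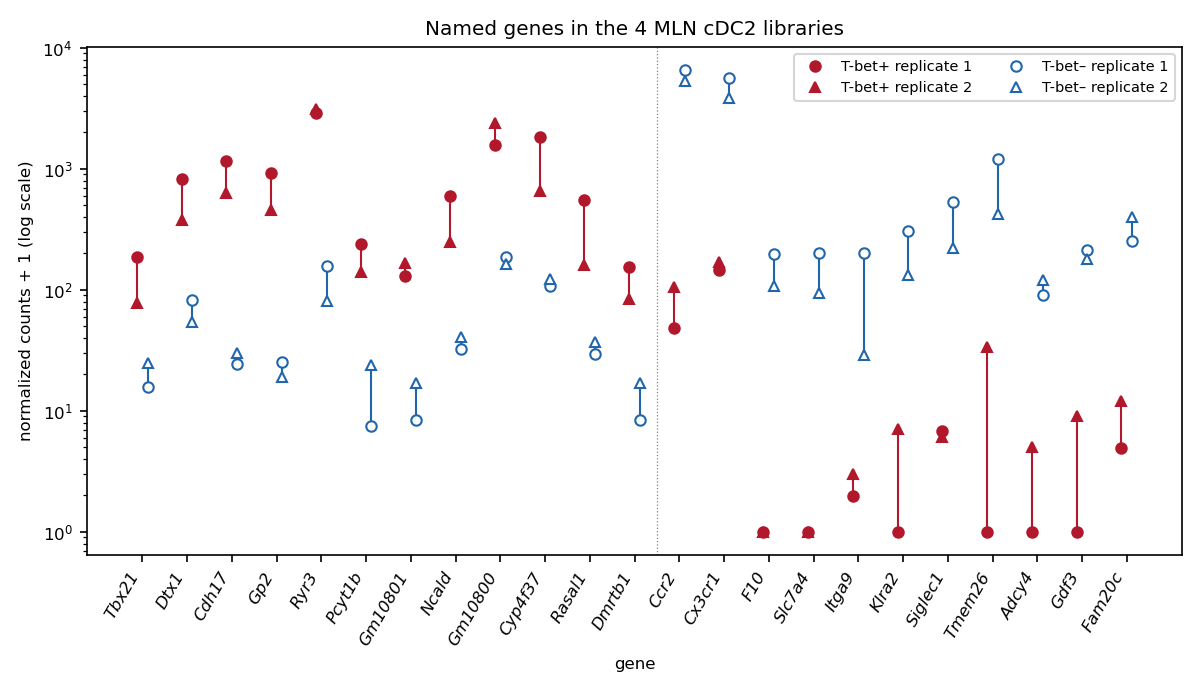
Normalized counts, with 1 added, in each of the 4 MLN cDC2 libraries on a log axis, 1 point per library and a line joining the replicates, for the subset markers and the genes with the largest log2 fold changes. In every gene shown, both T-bet+ points lie on the same side of both T-bet– points. The genes with the largest fold changes were chosen to meet this.

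Genes of classical dendritic cell identity had a median difference near 0 between the subsets. Of the 12 such genes 0 were at an unadjusted p under 0.05 in either direction, and their median log2 fold change was -0.0078. *H2-Aa*, which encodes an MHC class II alpha chain, had 317171 and 274992 in T-bet+ against 299821 and 306770 in T-bet– libraries. *H2-Ab1*, its beta chain partner, had 493889 and 265555 in T-bet+ against 255787 and 451802 in T-bet– libraries, with a wide spread within each subset. *Cd74*, the gene of the invariant chain, had 1014393 and 650444 in T-bet+ against 1243853 and 1130710 in T-bet– libraries, both T-bet+ libraries lying below both T-bet– libraries. Of 14 genes of MHC class II presentation, the only one at an unadjusted p under 0.05 was *H2-Ob*, which encodes a chain of H2-O, a modulator of peptide loading, with 13072 and 5869 in T-bet+ against 3045 and 3394 in T-bet– libraries.

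The cDC2 markers held members in both directions, against 3.74% of all genes higher and 5.7% lower at an unadjusted p under 0.05. Of the 12 members tested, 1 was higher in T-bet+ cDC2s and 3 were lower at an unadjusted p under 0.05, and the median log2 fold change was 0.08. *Clec4a4*, which encodes the inhibitory lectin receptor DCIR2 and is typical of splenic ESAM+ cDC2s, had 3459 and 1647 normalized counts in T-bet+ against 426 and 396 in T-bet– libraries, a log2 fold change of 2.64 ± 0.54, with an adjusted p of 0.239 in edgeR and 0.000142 in DESeq2. Those lower were the lectin genes *Clec12a* (468 and 378 in T-bet+ against 1989 and 2303 in T-bet– libraries), *Mgl2* (215 and 32.5 in T-bet+ against 1654 and 2492 in T-bet– libraries) and *Clec10a* (232 and 69.1 in T-bet+ against 1468 and 1579 in T-bet– libraries). *Mgl2* and *Clec10a* encode galactose-type lectins found on a part of dermal and nodal cDC2s and on macrophages. *Sirpa*, *Cd4* and *Cd209a* had log2 fold changes of 0.062 ± 0.75, 0.43 ± 0.53 and 0.31 ± 0.48 (SE), and each changed sign when T-bet+ replicate 1 was left out, to -0.75, -0.50 and -0.43. *Irf4*, the gene of a transcription factor on which cDC2s depend, had 4789 and 3251 in T-bet+ against 2693 and 2763 in T-bet– libraries, a log2 fold change of 0.56 ± 0.64.

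Genes shared with monocytes and macrophages were the group with the lowest medians. At an unadjusted p under 0.05, 5.7% of all genes were lower and 3.74% higher. DESeq2 called 1.48% of all genes lower and 0.667% higher. Of 13 monocyte markers tested, 9 were lower in T-bet+ cDC2s and 1, *Ms4a4c*, was higher at an unadjusted p under 0.05, with a median log2 fold change of -3.94, and DESeq2 called 8 lower. *Ccr2* and *Cx3cr1* stand on this list as well. *Lyz2*, which encodes lysozyme, had 6139.9 and 19503 in T-bet+ against 290917 and 178274 in T-bet– libraries. *Cd14*, the gene of an endotoxin co-receptor, had 177 and 87.4 in T-bet+ against 1678 and 2393 in T-bet– libraries. Both T-bet+ libraries lay below both T-bet– libraries in 11 of the 13, against 21% of all genes. The sort removed cells with Ly6C or CD64 on their surface, and *Fcgr1*, the gene of CD64, had 11.8 and 12.2 in T-bet+ against 365 and 167 in T-bet– libraries.

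Of 12 macrophage markers 7 were lower and 1 was higher, with a median of -3.12, and of -1.66 without T-bet+ replicate 1. DESeq2 called the same numbers, against 1.48% of all genes lower and 0.667% higher. *C1qb*, which encodes a chain of complement C1q, had 140.1 and 877 in T-bet+ against 22143 and 11000.4 in T-bet– libraries. *Adgre1*, the gene of F4/80, went the other way, with 9427 and 5024 in T-bet+ against 2415 and 2359.9 in T-bet– libraries, a log2 fold change of 1.60 ± 0.35 (SE). Summed over the list, macrophage markers came to 768 and 562 CPM in T-bet+ and 3001 and 1730.3 CPM in T-bet– libraries, and monocyte markers to 1265 and 1312 CPM in T-bet+ and 14255 and 9041 CPM in T-bet– libraries. None of the defining markers of either list was at 0 in all 4 libraries. The part that cells of other types in the sort play in these values was not tested.

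A part of the genes of complement, Fc receptors and receptors for dead cells was lower, against 5.7% of all genes at an unadjusted p under 0.05 and 1.48% called by DESeq2. Of 20 complement genes 10 were lower and 0 higher at an unadjusted p under 0.05, with a median of -2.09. DESeq2 called 5 of them lower. Leaving out T-bet– replicate 1 left 4 lower, leaving out T-bet+ replicate 2 left 12, and without T-bet+ replicate 1 the median was -1.15. *C1qa*, a C1q chain gene, had 65.6 and 503 in T-bet+ against 15156 and 7733 in T-bet– libraries. Of 8 Fc receptor genes 3 were lower, all called by DESeq2. They were *Fcgr1*, *Fcgr3* (43.1 and 101 in T-bet+ against 1978 and 1233 in T-bet– libraries) and *Fcgr2b* (417 and 231 in T-bet+ against 2234 and 1792 in T-bet– libraries), the last of which encodes the inhibitory IgG receptor. Of 14 scavenger and dead-cell receptor genes 5 were lower, with a median of -0.72. *Axl*, the gene of a receptor tyrosine kinase that binds dying cells through GAS6, had 152 and 335 in T-bet+ against 10119.6 and 5809 in T-bet– libraries. *Msr1*, which encodes scavenger receptor A, had 16.7 and 116 in T-bet+ against 2107 and 1133 in T-bet– libraries, and *Mertk* had 14.7 and 64.01 in T-bet+ against 676 and 415 in T-bet– libraries. The other members lower were *Lrp1* and *Stab1*.

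**Figure D3:**
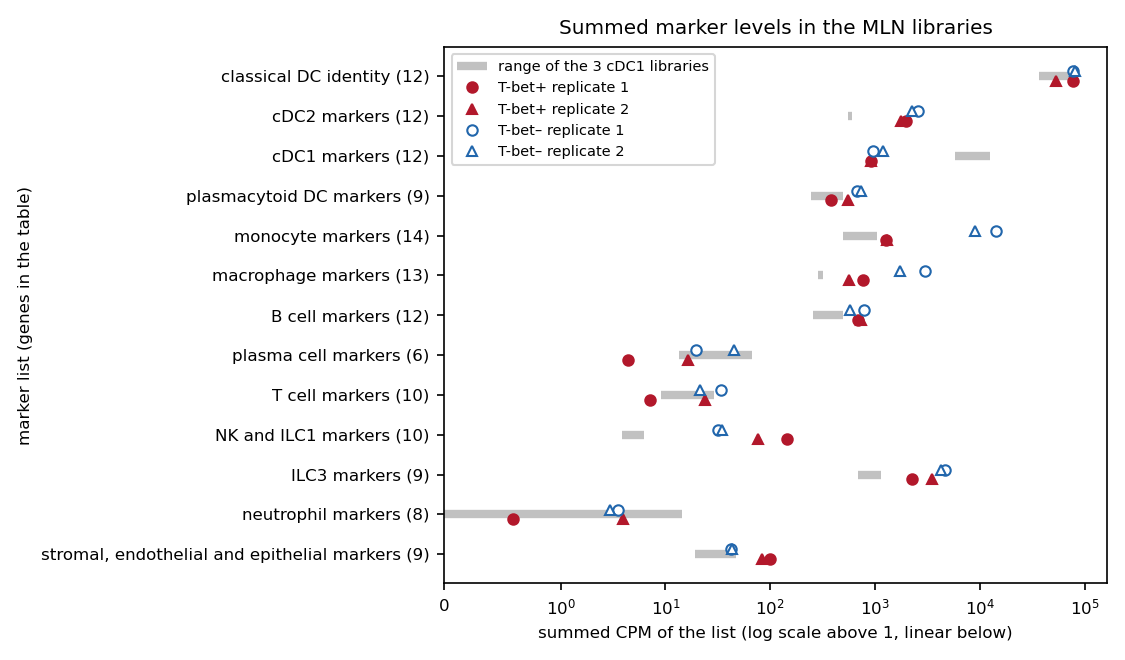
Summed level of each list of cell-type markers, in CPM (counts scaled to library size) on an axis that is logarithmic above 1 and linear below, 1 point per library, with a grey bar over the range of the 3 MLN cDC1 libraries. The monocyte list lies between 1265 and 1312 in T-bet+ and between 9041 and 14255 in T-bet– cDC2s.

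Among 17 chemokine receptor genes, 5 were lower (*Ccr2*, *Cx3cr1*, *Ackr3* and *Cxcr4* among them) and 1 was higher at an unadjusted p under 0.05. The shares of all genes at that p were 5.7% lower and 3.74% higher. The gene that was higher was *Ccr6*, which encodes the receptor for CCL20 made by gut epithelium over lymphoid follicles, with 3329 and 1999 in T-bet+ against 914 and 704 in T-bet– libraries. Of 25 chemokine genes 8 were lower and 1, *Ccl3* (2786 and 2332 in T-bet+ against 1005 and 1439 in T-bet– libraries), higher, with a median of -1.46, which was -0.79 without T-bet+ replicate 1. Without either of the T-bet– replicates 4 were lower, and without T-bet+ replicate 2 the count was 15. *Cxcl9*, an attractant of CXCR3+ T cells, had 349 and 368 in T-bet+ against 1969 and 1199 in T-bet– libraries. The monocyte attractants *Ccl2* (43.1 and 12.2 in T-bet+ against 117 and 213 in T-bet– libraries) and *Ccl12* (0.980 and 12.2 in T-bet+ against 311 and 73.9 in T-bet– libraries) were lower too, and so was *Cxcl2*, a neutrophil attractant, with 245 and 843 in T-bet+ against 1669.6 and 1485 in T-bet– libraries. Of 14 other receptors for positioning signals 4 were lower (*C5ar1*, *Gpr132*, *Ptger2* and *S1pr2*), and *S1pr2*, a sphingosine 1-phosphate receptor gene, had 119.5 and 311 in T-bet+ against 791 and 541 in T-bet– libraries.

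Genes of pathogen sensing and cytokines held members in both directions at an unadjusted p under 0.05, which 5.7% of all genes reached lower and 3.74% higher. Of 19 genes of Toll-like receptors and co-receptors 4 were lower and 1 higher. *Tlr8* had 16.7 and 20.3 in T-bet+ against 410.0 and 408 in T-bet– libraries, and *Tlr12*, which serves in sensing profilin of parasites, had 123 and 476 in T-bet+ against 3137 and 1441 in T-bet– libraries. *Cd180*, which encodes a relative of TLR4, had 1188 and 868 in T-bet+ against 455 and 441 in T-bet– libraries. *Ticam1* and *Cd14* made up the rest of the 4. Of 28 C-type lectin genes 9 were lower and 3 higher, with a median of -0.49. Those higher were *Clec4a4*, *Clec4b2* (39.2 and 31.5 in T-bet+ against 11.1 and 8.99 in T-bet– libraries) and *Cd207* (8.82 and 109.7 in T-bet+ against 4.64 and 8.99 in T-bet– libraries), of which *Cd207* rested on T-bet+ replicate 2, since its T-bet+ replicate 1 lay below T-bet– replicate 2. *Clec5a*, an activating receptor gene of myeloid cells, had 59.8 and 65.03 in T-bet+ against 966 and 306 in T-bet– libraries. Of 22 cytokine genes 5 were lower and 1 higher, *Il10* and *Lif* being among the lower. *Il1a*, which encodes interleukin 1 alpha, had 11.8 and 54.9 in T-bet+ against 634 and 485 in T-bet– libraries, and *Il1rn*, which encodes the antagonist of its receptor, had 803 and 1508 in T-bet+ against 4459.7 and 5076 in T-bet– libraries. *Osm* had 392 and 443 in T-bet+ against 2459 and 3919.6 in T-bet– libraries, and *Tnf*, the only cytokine gene higher, had 605 and 536 in T-bet+ against 230.0 and 413 in T-bet– libraries. Of 32 cytokine receptor genes 6 were lower and 0 higher at that p. *Csf1r*, the gene of the receptor through which monocytes and macrophages survive, had 5132 and 2346 in T-bet+ against 36537 and 25379 in T-bet– libraries, and *Csf3r* had 111 and 115 in T-bet+ against 1729.9 and 1131 in T-bet– libraries.

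Of transcription factor and pathway genes, a part differed at an unadjusted p under 0.05, which 5.7% of all genes reached lower and 3.74% higher. Of 26 Notch pathway genes 2 were higher (*Dtx1* and *Notch4*) and 4 lower (*Dtx3*, *Hes1*, *Ncstn* and *Notch3*), of which *Dtx1* was described above and *Notch4* had 20.6 and 23.4 in T-bet+ against 2.78 and 0.999 in T-bet– libraries, at or under 3 counts in both T-bet– libraries. *Dtx3*, a relative of *Dtx1*, went the other way with 737 and 1327 in T-bet+ against 3505 and 2699 in T-bet– libraries, and *Notch3* had 16.7 and 25.4 in T-bet+ against 68.6 and 108 in T-bet– libraries. Of 8 T-box and Runx genes 2 were higher. These were *Tbx21* and *Cbfb*, which encodes the partner chain of Runx factors and had 1597 and 1236 in T-bet+ against 658 and 810.3 in T-bet– libraries. *Egr3*, an immediate early transcription factor gene, had 986 and 369 in T-bet+ against 126 and 187 in T-bet– libraries, and was the only one of 20 immediate early and Nr4a genes at an unadjusted p under 0.05. On the list of C/EBP and NFI factors, 2 of 8 genes were lower and 0 higher. *Nfix* had 77.4 and 72.1 in T-bet+ against 194 and 208 in T-bet– libraries. *Nfil3*, a basic leucine zipper factor gene, had 393 and 409 in T-bet+ against 589 and 1219 in T-bet– libraries, while 0 of 13 Klf genes reached that p. Among 12 retinoic acid genes 1 was lower and 1 higher. *Rxra*, the gene of a nuclear receptor partner, had 59.8 and 145 in T-bet+ against 780.1 and 369 in T-bet– libraries. *Dhrs9*, which encodes a retinol dehydrogenase, had 230.2 and 181 in T-bet+ against 64.9 and 28.97 in T-bet– libraries.

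Many of the cell cycle genes were higher in T-bet+ cDC2s. Of 28 tested, 15 were higher and 0 lower at an unadjusted p under 0.05, against 3.74% of all genes higher. The median log2 fold change was 1.62. DESeq2 called 9 of the 28 higher, against 0.667% of all genes. Both T-bet+ libraries lay above both T-bet– libraries in 21 of the 28, against 19% of all genes. *Ccna2*, which encodes cyclin A2, had 340.0 and 207 normalized counts in T-bet+ against 51.02 and 46.96 in T-bet– libraries, a log2 fold change of 2.48 ± 0.54, with an adjusted p of 0.252 in edgeR and 0.00192 in DESeq2. *Top2a*, the gene of topoisomerase II alpha, had 5925 and 3492 in T-bet+ against 1693 and 786 in T-bet– libraries. *Kif11*, a motor of the mitotic spindle, had 2450.3 and 1335 in T-bet+ against 519 and 218 in T-bet– libraries, and *Cdc20*, an activator of the anaphase-promoting complex, had 1036 and 333 in T-bet+ against 138 and 163 in T-bet– libraries. The 6 genes *Mcm2* to *Mcm7* of the replicative helicase are also on the list. Chosen as a group after their values were seen, they had log2 fold changes from -0.057 to 0.76, and 0 were at that p. *Mcm3* had 4390.1 and 2159 in T-bet+ against 3923 and 2891 in T-bet– libraries and *Mcm5* had 4048 and 1986 in T-bet+ against 3232 and 2429.9 in T-bet– libraries. Of the 28, 6 were higher at that p without T-bet– replicate 2, and likewise 6 without T-bet+ replicate 1, where the median was 1.17. With the number in the library name as a block, 17 were higher and 2 lower, with a median of 0.84.

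For genes of mature migratory dendritic cells, the difference between the subsets moved with the T-bet+ replicates. Of 21 tested, 0 were at an unadjusted p under 0.05 in either direction, with a median of -0.44. The log2 fold change was negative in 18 and positive in 3, against 7820 and 7469 of all 15298 genes. The median was 0.12 without T-bet+ replicate 1 and -1.44 without T-bet+ replicate 2, when 8 were lower. *Ccr7*, *Fscn1* and *Cacnb3* were chosen after their values were seen. *Ccr7* had 56569.8 and 203266 normalized counts in T-bet+ against 242266 and 254362 in T-bet– libraries. *Fscn1*, an actin bundler of mature dendritic cells, had 2489 and 11029 in T-bet+ against 7501 and 15867 in T-bet– libraries, and *Cacnb3* had 6310.4 and 37117 in T-bet+ against 40562 and 38248 in T-bet– libraries. T-bet+ replicate 1 held the lowest level of each of these genes, and T-bet+ replicate 2 lay near the T-bet– libraries. The part that the share of migratory cells in each pool plays in the differences between the subsets was not tested.

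Several metabolic and effector lists leaned lower, against 5.7% of all genes lower and 3.74% higher at an unadjusted p under 0.05. Of 28 genes of cholesterol synthesis and efflux 6 were lower and 0 higher, with a median of -0.47 and of -0.14 without T-bet+ replicate 1. *Nr1h3*, which encodes the oxysterol receptor LXR alpha, had 178 and 345 in T-bet+ against 3962 and 2070.2 in T-bet– libraries, and *Abca1*, a cholesterol exporter gene, had 23.5 and 74.2 in T-bet+ against 523 and 681 in T-bet– libraries. Of 17 purinergic genes 7 were lower and 1, *P2ry10*, higher. *P2ry12* and *P2ry13*, neighbouring genes of ADP receptors, had 12.7 and 36.6 in T-bet+ against 989 and 378 in T-bet– libraries and 30.4 and 204 in T-bet+ against 4311 and 2047 in T-bet– libraries in that order. *P2rx7*, the gene of an ATP-gated channel, had 284 and 128 in T-bet+ against 1225 and 806 in T-bet– libraries. Of 18 tissue repair and matrix genes 7 were lower and 0 higher, with a median of -1.36. *Mmp14*, a membrane matrix metalloproteinase gene, had 19.6 and 17.3 in T-bet+ against 428 and 683 in T-bet– libraries. *Hbegf*, a ligand of the EGF receptor, had 45.1 and 19.3 in T-bet+ against 389.6 and 337 in T-bet– libraries.

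The remaining lists varied in how many genes were at an unadjusted p under 0.05, which 5.7% of all genes reached lower and 3.74% higher. The counts of interferon-stimulated and costimulatory genes lie near these shares. Of 10 *Ms4a* genes 4 were lower and 3 (*Ms4a1*, *Ms4a4b* and *Ms4a4c*) higher, and among the lower were *Ms4a4a* (17.6 and 49.8 in T-bet+ against 824 and 333 in T-bet– libraries) and *Ms4a6d* (101 and 130.1 in T-bet+ against 1581 and 958 in T-bet– libraries). Of 17 integrin genes 3 were lower (*Itga5*, *Itga6* and *Itga9*) and 2 higher (*Itgad* and *Itgae*), and *Itgae*, the gene of CD103, had 259 and 445 in T-bet+ against 134 and 145 in T-bet– libraries. Of 15 genes of the TNF and lymphotoxin family 3 were lower (*Tnfrsf21*, *Tnfsf12* and *Tnfsf13*) and 2 higher (*Tnf* and *Tnfrsf13b*), and *Tnfrsf21* had 101 and 49.8 in T-bet+ against 302 and 548 in T-bet– libraries. Of 25 interferon-stimulated genes 2 were lower, *Rsad2* (1023 and 2203 in T-bet+ against 3319 and 4117 in T-bet– libraries) and *Oas3* (482 and 213 in T-bet+ against 767 and 620.5 in T-bet– libraries). Of 13 inflammasome genes 1 was higher and 1 lower, with a median of -0.054. *Nlrp10*, the higher, had 718 and 352 in T-bet+ against 124 and 121 in T-bet– libraries. *Gsdmd*, which encodes the pore-forming gasdermin D, had 4738 and 8129.5 in T-bet+ against 13633 and 11432 in T-bet– libraries. Of 18 costimulatory and checkpoint genes 1 was higher, *Btla*, which encodes an inhibitory receptor and had 2797 and 2838 in T-bet+ against 1583 and 1009 in T-bet– libraries.

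Counts for many lists moved with single libraries. With a library left out, members at that p ranged from 3 to 7 lower for cytokine receptors (6 with all libraries), 4 to 8 lower for cytokines (5 with all libraries), 1 to 5 lower for Notch genes (4 with all libraries), 1 to 3 lower for positioning receptors (4 with all libraries), 5 to 11 lower for tissue repair genes (7 with all libraries), 4 to 6 lower for purinergic genes (7 with all libraries), 4 to 11 lower for cholesterol genes (6 with all libraries), 2 to 4 lower for *Ms4a* genes (4 with all libraries), 1 to 5 lower for integrins (3 with all libraries) and 2 to 5 lower for the TNF family (3 with all libraries). The fewest came without T-bet+ replicate 1 for cytokine receptors, Notch genes and integrins, without T-bet– replicate 2 for tissue repair and purinergic genes, without either of these libraries for cytokines and cholesterol genes, without T-bet– replicate 1 or T-bet+ replicate 1 for positioning receptors and *Ms4a* genes, and without any library but T-bet+ replicate 2 for the TNF family. In the other direction they ranged from 0 to 2 higher for *Ms4a* genes (3 with all libraries), 0 to 3 higher for integrins (2 with all libraries), 0 to 3 higher for the TNF family (2 with all libraries) and 1 to 3 higher for C-type lectins (3 with all libraries). The fewest of these came without T-bet– replicate 2 for *Ms4a* genes and integrins, without T-bet– replicate 1 or T-bet+ replicate 1 for the TNF family, and without either of the T-bet– replicates for C-type lectins. The single genes higher among monocyte markers, chemokines, Toll-like receptors, cytokines, purinergic, immediate early, inflammasome, MHC class II and costimulatory genes, and the interferon-stimulated genes lower, missed that p with at least 1 library left out. The median of the scavenger receptors was -2.23 without T-bet+ replicate 2 and that of the purinergic genes -0.41 without T-bet+ replicate 1. Genes named without values complete a count, and were chosen after their values were seen.

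Markers of lymphocytes and of other cell types differed less in their sums than those of monocytes. NK and ILC1 markers summed to 145 and 77.00 CPM in T-bet+ and 31.7 and 34.4 CPM in T-bet– libraries, and *Klrd1*, which encodes CD94 and made up most of that sum, had 3446 and 1786 in T-bet+ against 653 and 748 in T-bet– libraries. T cell markers summed to 7.18 and 24.02 CPM in T-bet+ and 34.1 and 21.5 CPM in T-bet– libraries, B cell markers to 691 and 729 CPM in T-bet+ and 792 and 579 CPM in T-bet– libraries and plasma cell markers to 4.38 and 16.2 CPM in T-bet+ and 19.6 and 45.4 CPM in T-bet– libraries. *Cd79b*, a chain gene of the B cell receptor, had 757 and 514 in T-bet+ against 1492 and 1436 in T-bet– libraries, and *Ms4a1*, the gene of CD20, had 760.3 and 794 in T-bet+ against 429 and 256 in T-bet– libraries. Neutrophil markers summed to 0.592 and 3.93 CPM in T-bet+ and 3.51 and 2.94 CPM in T-bet– libraries, and stromal, endothelial and epithelial markers to 99.4 and 84.1 CPM in T-bet+ and 42.5 and 43.3 CPM in T-bet– libraries. Plasmacytoid dendritic cell markers summed to 383 and 549 CPM in T-bet+ and 669 and 732 CPM in T-bet– libraries, where *Siglech* had 8.82 and 54.9 in T-bet+ against 357 and 86.9 in T-bet– libraries and *Pacsin1* 164 and 91.4 in T-bet+ against 26.9 and 34.97 in T-bet– libraries. ILC3 markers summed to 2248 and 3472 CPM in T-bet+ and 4660.0 and 4283 CPM in T-bet– libraries. cDC1 markers summed to between 916 and 1180 CPM in the 4 cDC2 libraries and to between 5758 and 12395 in the 3 MLN cDC1 libraries. Of all these markers *Tnfrsf17* alone was at 0 in all 4 libraries. The part of other cell types in the differences between the subsets was not tested.

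**Figure D4:**
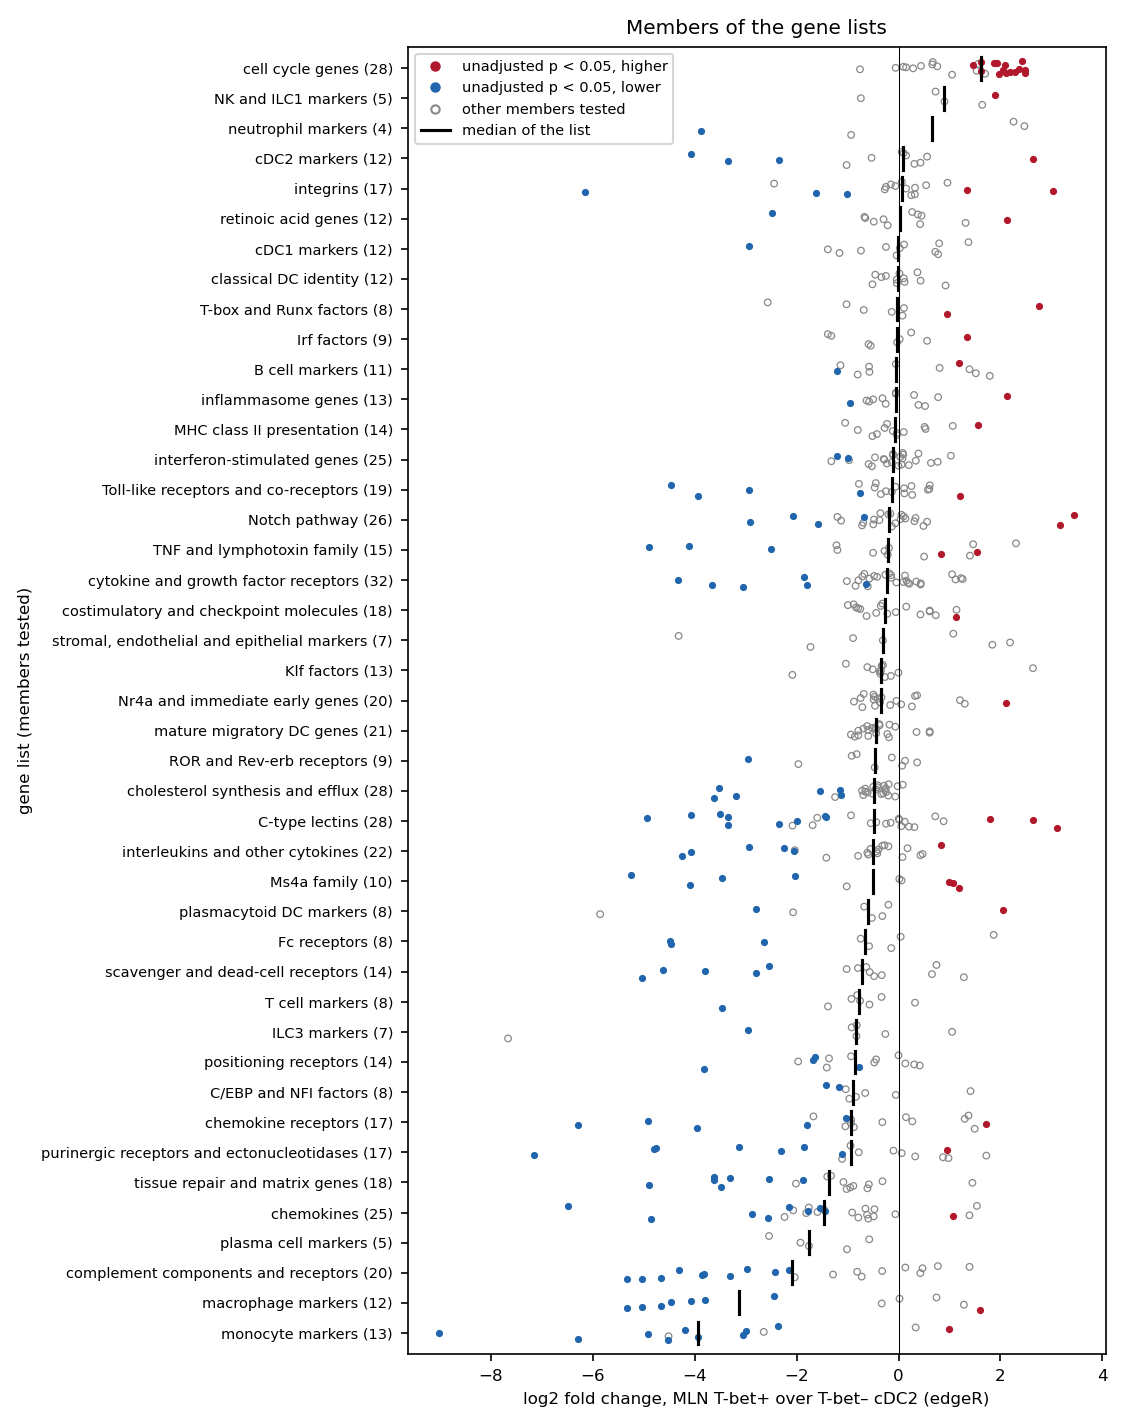
Each point is a gene of the list named at left, placed by its log2 fold change, T-bet+ over T-bet–, with the list's median as a vertical bar and filled points for genes at an unadjusted p under 0.05. Monocyte markers have the lowest median (-3.94) and cell cycle genes the highest (1.62) among the lists shown.

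The same subsets were sorted from spleen, in 3 libraries each that share none with MLN. edgeR called 280 genes higher (1.95%) and 494 lower (3.44%) in T-bet+ spleen cDC2s. Of the 276 spleen genes higher that were also tested in MLN, 245 (88.8%) had the same sign there and in 189 (68.5%) both T-bet+ libraries lay above both T-bet– libraries, against 19% of all genes. Of the 488 lower, 456 (93.4%) had the same sign and 357 (73.2%) were separated in the same direction, against 21%. In MLN, DESeq2 called 51 of the 276 (18.5%) and 133 of the 488 (27.3%) in the same direction. Of all genes tested in MLN it called 0.667% higher and 1.48% lower. The median log2 fold change of these genes was 1.13 in MLN and 1.87 in spleen for those higher, and -1.20 and -2.19 for those lower. The spleen values chose these genes, so their spleen medians are a description. *Ccr2* had a log2 fold change of -6.29 in MLN and -6.57 in spleen, and *Cx3cr1* of -4.92 and -5.15. Neither difference between tissues passed (edgeR, adjusted p = 0.979 and 0.981), which does not show that they were equal.

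The test of the difference between tissues over 16 RNA libraries called 1 gene of 16795 (0.00595%), with 847 at an unadjusted p under 0.05. DESeq2 called 39. The gene was *Gpr4*, which encodes a proton-sensing receptor. In MLN it had 1209 and 1149 in T-bet+ against 1098 and 808 in T-bet– libraries, a log2 fold change of 0.31 ± 0.39, and in spleen its log2 fold change was 3.83 ± 0.26 (SE). The difference was -3.48 ± 0.45, with an adjusted p of 0.0273 in edgeR. With each of the 10 cDC2 libraries left out in turn, the difference ranged from -3.67 to -3.28 and *Gpr4* was called in 2 fits and not in the other 8, with adjusted p from 0.0351 to 0.237. The call held only without spleen T-bet– replicate 1 or spleen T-bet+ replicate 3. *Dtx1* had a log2 fold change of 3.16 in MLN and 5.36 in spleen (unadjusted p of the difference = 0.00517, adjusted p = 0.865 in edgeR). *Gp2* went the other way, with 5.01 in MLN and 2.16 in spleen (unadjusted p = 0.00564, adjusted p = 0.865). *Itga9* (-6.14 and -0.84) and *F10* (-10.24 and -3.15) were lower by more in MLN, where few or no counts make the fitted values depend on the prior count. Of the 23 subset markers and largest fold changes, 0 had opposite signs in the tissues and 15 were called in spleen. Over all genes tested in spleen, 1.95% were called higher and 3.44% lower. The tissues also differ in their number of libraries and in the spread between them, and the part of that in the fewer MLN calls was not tested.

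**Figure D5:**
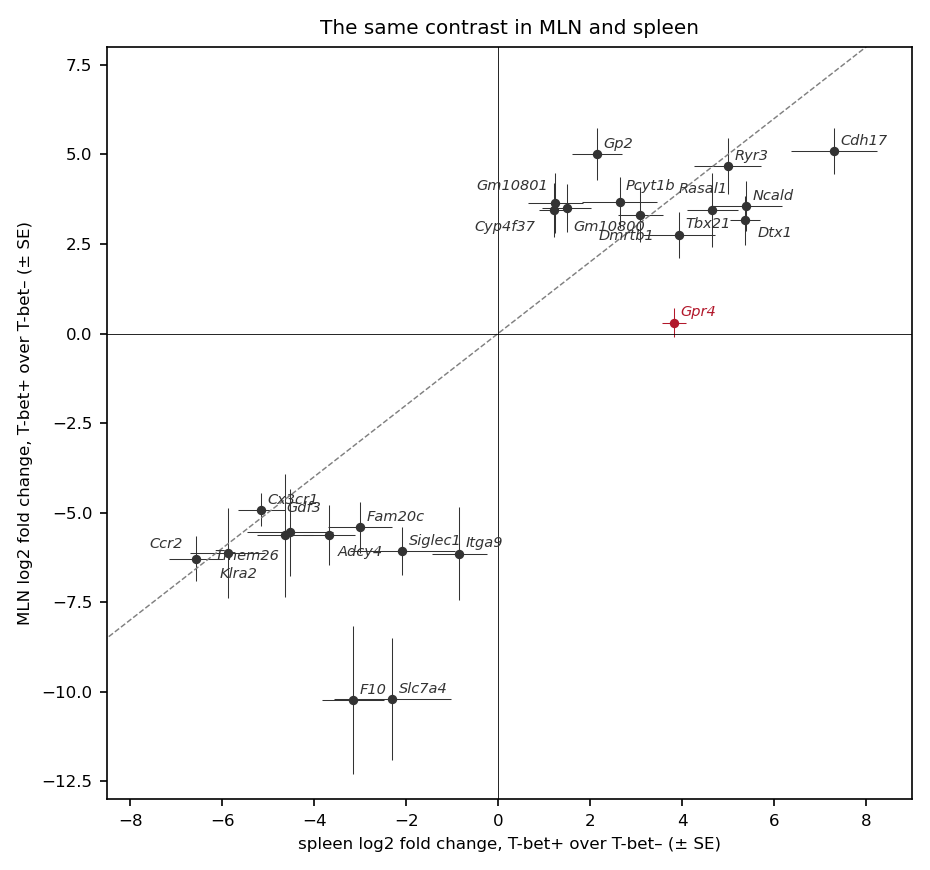
Each point is 1 of the 23 subset markers and largest fold changes, or *Gpr4* in red, placed by its log2 fold change, T-bet+ over T-bet–, in spleen (horizontal) and in MLN (vertical), with bars of 1 SE and a dashed line of equal values. The 23 genes lie on the same side of 0 in both tissues, and *Gpr4* lies near 0 in MLN and at 3.83 in spleen.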

How the data were processed

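Gene counts of all RNA libraries were read from 1 table that the authors deposited, without normalization, and each column was assigned to its sample by the labels. The authors used HISAT2 2.1.0 with mm10 for alignment, and counted unique alignments against the GENCODE vM17 annotation. Libraries were made with a SMART-Seq kit, with amplification, and whether the counting used strand is not given in the sources used here, so genes overlapping on opposite strands are uncertain. For the spleen ATAC-seq windows, counts were deposited by the authors as raw reads and were TMM-normalized here, and the deposited score of each summit, 1 value for all libraries together, was not used for any result.

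Genes kept by filterByExpr of edgeR 4.0.16 were normalized by TMM and fitted with subset as the only term over all 7 MLN libraries, which gave 4 residual degrees of freedom, by the quasi-likelihood test, adjusted by Benjamini-Hochberg at 0.05. The study's methods used DESeq2 without saying which libraries entered. DESeq2 1.42.0, limma 3.58.1 and R 4.3.3 were used for alternatives. Genes were named as the subset markers, as the 10 largest fold changes in each direction at an unadjusted p under 0.05 averaging 50 or more normalized counts, without overlap of the subsets, as up to 4 members of each of 44 lists (653 genes), as the highest members of identity lists, and by the test of the difference between tissues. The members and lists were chosen with earlier results of these data known. Same-numbered libraries were not paired: deviations of same-numbered libraries correlated at -0.137. Intervals and floors cover counting error only. The scripts were tested on simulated counts. Positions are from GENCODE M21 (mm10). Results for some items the study names are not reported here.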

Additional observations from a re-analysis of the deposited data

Results flagged for a closer look

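*Gpr4* was picked out because the difference between T-bet+ and T-bet– cDC2s differed between tissues in a test of the difference itself. Its log2 fold change was 0.31 in MLN and 3.83 in spleen, a difference of -3.48 (edgeR, adjusted p = 0.0273). The call was lost in 8 of the 10 edgeR fits that left out 1 cDC2 library, while the difference stayed between -3.67 and -3.28. The cause was not tested.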

How the results depend on the processing

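The count of genes called in MLN was 0 in the fit reported, 0 with DESeq2's size factors and with the replicate block, and 0 when each library was left out in turn, and it depended on the test. It was 328 with DESeq2, 434 with DESeq2 on only the 4 MLN cDC2 libraries, 554 with no filter on low counts, 2 with at least 10 counts in every library, 14 with only the 4 libraries, 28 with the newer estimate of the spread, 14 with limma-voom and 130 with the number in the library name as the block. An alternative chosen after seeing the data, removing the GC trend, gave 2. The count at an unadjusted p under 0.05 was 2273 with no filter, 2177 with the library-name block, 1544 with the replicate block, and 871 to 2265 when each library was left out. Same-numbered libraries were not shown to be paired (correlation -0.137, and 0.137 for the crossed pairing, of which the library-name numbers give 1 pair, T-bet+ replicate 2 with T-bet– replicate 1). The spleen count of 774 was 1425 with DESeq2 and 307 to 1257 with a library left out. The tissue difference of 1 gene was 39 with DESeq2, 186 with no filter and 0 to 3 with a library left out, with *Gpr4* called in 2 of those 10 fits. Genes that changed sign were not called in any fit reported: *H2-Ab1* (-0.046 with the replicate block, -0.25 with the library-name block), *Sirpa* (-0.34 with the library-name block, -0.075 with limma-voom), *Cd4* (-0.32) and *Cd209a* (-0.0059) with the library-name block, and *Dpp4* (-0.10 with the GC trend removed). With a library left out, log2 fold changes ranged from -0.38 to 0.60 for *H2-Ab1*, -0.091 to 0.095 for *H2-Aa*, -1.22 to 0.27 for *Id2*, -0.34 to 0.54 for *Dpp4*, -0.75 to 0.62 for *Sirpa*, -0.50 to 1.04 for *Cd4* and -0.43 to 0.84 for *Cd209a*. The cause was not tested. The number of libraries, 2 a side, and their depth both limit precision, and their shares were not compared.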
